A study of Mus musculus with 6 samples.

Results

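The ERK feedback genes described here are 10 mouse genes, mostly turned on by extracellular signal-regulated kinase (ERK) signaling and mostly acting back on it. They are the dual-specificity phosphatases Dusp4, Dusp5, Dusp6 and Dusp10, the Sprouty genes Spry1, Spry2 and Spry4, the Sprouty-related gene Spred1, and the ETS transcription factors Etv4 and Etv5. They were chosen by symbol, and all 10 were found once each among the 41388 gene identifiers of the count tables. The cells came from mammary tumors of female MMTV-PyMT mice aged 12 weeks (strain FVB/N-TgN(MMTVPyVT)634Mul/J), in which the mouse mammary tumor virus promoter drives the polyoma middle T antigen in mammary epithelium. Every sample carries this transgene, so no tumor without middle T was compared. Tumor initiating cells (TICs) were sorted as CD24+CD90+CD45- cells (3 samples) and compared with 3 samples of non-CD24+CD90+ tumor cells, from which CD45+ cells had also been removed. Each sample pooled tumors of 4 mice, no treatment was given, and the sample labels call the comparison cells only primary cells, while the design text calls them CD24-CD90- and the study's methods describe cells lacking either or both markers.

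Growth factor receptors, and the middle T antigen in their place, pass signals through RAS, RAF and MEK to ERK, which phosphorylates transcription factors and switches on a set of early genes. Several of these genes limit the signal that induced them: the phosphatases remove phosphate from MAP kinases, and Sprouty and Spred proteins hold back the path from receptors to RAS and RAF. The ETS factors Etv4 and Etv5 are relieved from repression when ERK inactivates the repressor Capicua, and both are active in branching mammary epithelium. RNA levels of such genes are widely used as a readout of ERK activity, which was not itself measured in these samples.

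Promoter sequences were read for the members, because ERK acts on its early genes through short elements near the start site. RefSeq windows of 250 bases before an annotated start (GRCm38.p6) were on hand for 7 of the 10 genes, and not for Dusp4, Spry4 and Etv4. RefSeq starts can differ from the gene coordinates given further below, and the Dusp5 and Etv5 windows shown here partly overlap those coordinates. The 3 sequences below belong to the genes whose TIC samples all lay below the other samples. They are written 5′ to 3′ along the gene, and capitals mark CArG boxes, the elements bound by serum response factor.
Dusp5 promoter, chr19:53528895-53529144, plus strand: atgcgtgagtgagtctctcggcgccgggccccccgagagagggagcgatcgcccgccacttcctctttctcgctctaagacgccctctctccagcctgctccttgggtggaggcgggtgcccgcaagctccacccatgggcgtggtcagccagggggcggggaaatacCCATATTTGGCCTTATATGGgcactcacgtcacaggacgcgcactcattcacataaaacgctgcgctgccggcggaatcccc
Dusp6 promoter, chr10:99262981-99263230, plus strand: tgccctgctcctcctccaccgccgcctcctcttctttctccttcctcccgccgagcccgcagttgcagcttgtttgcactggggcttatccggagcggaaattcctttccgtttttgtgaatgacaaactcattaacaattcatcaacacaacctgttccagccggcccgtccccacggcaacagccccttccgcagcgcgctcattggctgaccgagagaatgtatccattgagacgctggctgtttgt
Etv5 promoter, chr16:22439571-22439820, minus strand: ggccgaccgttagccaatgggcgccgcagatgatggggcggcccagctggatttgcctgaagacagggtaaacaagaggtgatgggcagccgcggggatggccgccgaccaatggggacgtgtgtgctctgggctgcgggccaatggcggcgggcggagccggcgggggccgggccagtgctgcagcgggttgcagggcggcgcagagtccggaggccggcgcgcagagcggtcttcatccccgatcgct

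The Dusp5 window held 2 CArG boxes side by side, CCATATTTGG at position -82 and CCTTATATGG at position -72, counted from the RefSeq start to the first base of each box. Of 32851 promoter windows of the same length, 1.47% held at least 1 CArG box on either strand and 6 windows (0.0183%) held at least 2. The Dusp6 and Etv5 windows held none. Another 5 motifs were searched on both strands of the 8 member windows, of which Etv5 has 2. For the Spred1 window and the second Etv5 window, the bases checked after the start matched no GENCODE transcript of the gene. Only exact matches to the letters given were counted. Shorter or variant forms of the ETS and Capicua sites were not searched, so 0 matches do not show that such sites are absent. The ETS site CCGGAA (in 12% of all windows) and the AP-1 site TGANTCA (6.75%) were in 0 member windows. The CRE TGACGTCA (1.55%) and the Capicua octamer TGAATGNA (3.2%) were also in 0 of the 8 windows. The shorter CRE core TGACG (17.8%) was in 1 of them, at position -55 of Dusp5, and did not overlap the CArG boxes.

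The libraries held 6781239 to 9100552 counted reads. The spread between samples of a group was wide, with a common biological coefficient of variation of 82.3% over 12192 tested genes, and low genes often dropped out in single samples. Among genes predicted from the other samples of the group to have 20 to 60 counts, 19% to 24.5% had none in the non-CD24+CD90+ samples and 27.5% to 39.7% in the TIC samples. The genes behind the sort overlapped between the groups: Cd24a differed by a log2 fold change of -0.34 (adjusted p = 0.98, edgeR exactTest) and Thy1, which encodes CD90, by 1.25 (adjusted p = 0.35). Ptprc, which encodes CD45, had 33 counts in non-CD24+CD90+ replicate 1 and 0 in the other 5 libraries. Each sample was a pool and the labels do not pair the groups, so the p-values below measure the spread between these pools.

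Of the 10 genes, 8 passed the expression filter (more than 1 CPM, the read count scaled to library size, in at least 3 samples), and 1 of these, Dusp5, fell in TICs at an adjusted p below 0.1 (edgeR exactTest, Benjamini-Hochberg over all tested genes). None rose. Over all tested genes 0.189% were called lower and 1.36% higher in TICs. The median log2 fold change (TIC minus non-CD24+CD90+) of the 8 genes was -0.48, beside -0.01 over all tested genes. In 3 of the 10 genes, Dusp5, Dusp6 and Etv5, every TIC sample lay below every non-CD24+CD90+ sample, a pattern found in 7.55% of all tested genes, and in 0 of 10 was the order the opposite (7.69% of all tested genes). The quasi-likelihood test of edgeR called 0 of the 8 genes (0.0082% of all tested genes lower, 0.402% higher), with 3 at an unadjusted exactTest p below 0.05 (7.85% of all tested genes), and DESeq2 called Dusp5 lower (0.621% of all genes lower, 1.9% higher). These counts cover measured RNA of sorted populations, in which fewer cells of a type and less RNA per cell cannot be told apart.

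**Figure D1:**
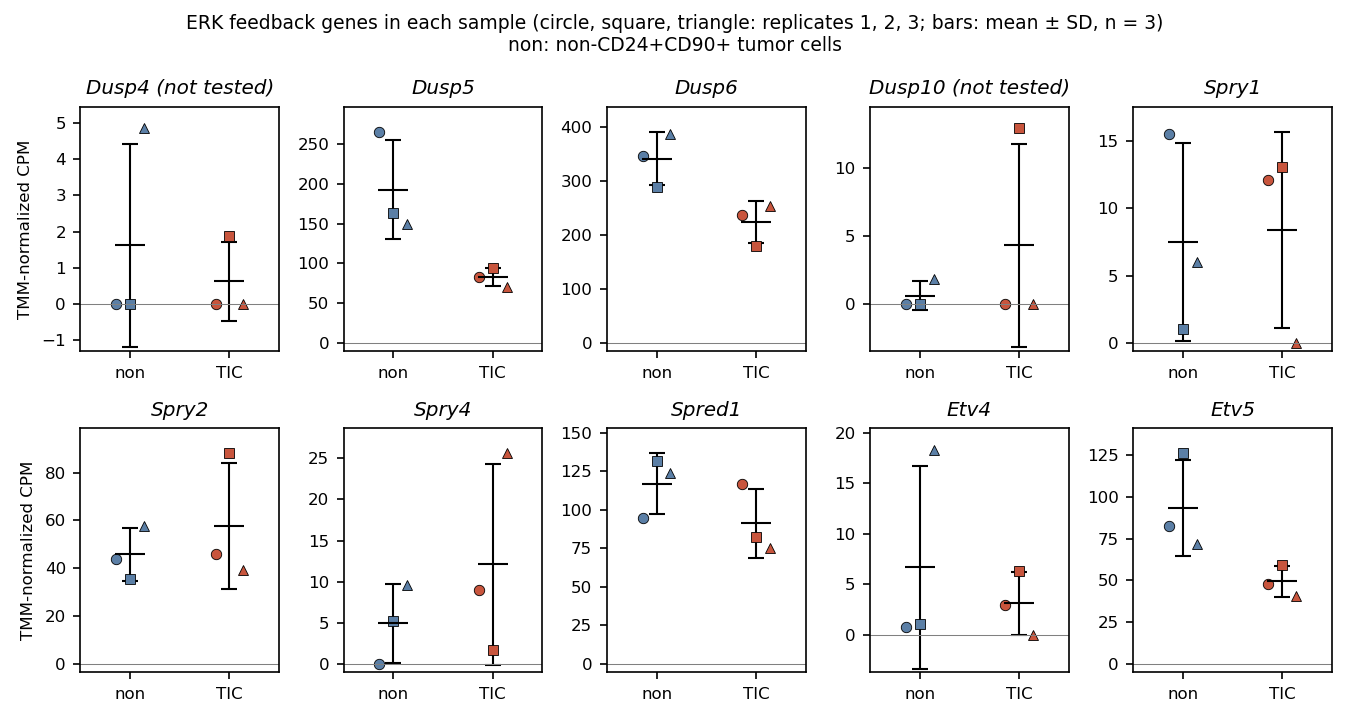
TMM-normalized CPM (linear axes, 1 panel for each of the 10 genes) in the 3 non-CD24+CD90+ and the 3 TIC samples; points are samples, and the bar and whiskers are the mean and SD. Dusp5, Dusp6 and Etv5 are the panels in which the groups do not overlap, while Dusp4 and Dusp10 are at 0 in 4 of 6 samples.

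Dusp5 (ENSMUSG00000034765; GRCm38 chr19:53529109-53542431, plus strand) encodes a nuclear phosphatase specific for ERK. Its level was 265, 164 and 150 CPM in the non-CD24+CD90+ samples and 83.5, 94.3 and 70.9 CPM in the TIC samples. The highest TIC sample thus stayed below the lowest of the other samples. The means were 193 ± 62.6 and 82.9 ± 11.7 CPM (SD, n = 3 each), which is 2.33-fold lower in TICs, with a log2 fold change of -1.22 (SE 0.33, 95% interval -1.87 to -0.56; adjusted p = 0.0407, edgeR exactTest). The group difference rested partly on non-CD24+CD90+ replicate 1, the highest sample, without which the log2 fold change was -0.91 and the adjusted p was 0.496 by the same exactTest. The call was also lost without non-CD24+CD90+ replicate 2 (adjusted p = 0.102), TIC replicate 2 (adjusted p = 0.101) or TIC replicate 3 (adjusted p = 0.173), while it held without non-CD24+CD90+ replicate 3 (adjusted p = 0.0624) and TIC replicate 1 (adjusted p = 0.0812). The quasi-likelihood test of edgeR gave an adjusted p of 0.169 and DESeq2 gave 0.0244. Exons of Dusp5 share 547 bases with the antisense transcript AC137853.2, which the count tables do not list, and the strand setting of the counting is not given in the sources used here, so antisense reads cannot be told apart from those of Dusp5.

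Dusp6 (ENSMUSG00000019960; chr10:99263231-99267489, plus strand) encodes the cytoplasmic ERK phosphatase and was the most abundant of the 10 genes. It measured 345, 289 and 387 CPM in the non-CD24+CD90+ samples and 237, 179 and 254 CPM in the TIC samples. Every TIC sample lay below the other samples, and the gap between the nearest samples, 254 and 289 CPM, was smaller than the SD of either group. The means were 340 ± 49.4 and 223 ± 39.1 CPM, with a log2 fold change of -0.61 (SE 0.29, 95% interval -1.18 to -0.03) that did not pass the test (unadjusted p = 0.0394, adjusted p = 0.579, edgeR exactTest). The ratio of Dusp5 to Dusp6 was 0.767, 0.567 and 0.389 in the non-CD24+CD90+ samples and 0.353, 0.526 and 0.279 in the TIC samples. The highest TIC ratio exceeded the lowest of the other samples, so the ratio of these ERK phosphatases overlapped between the groups.

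Dusp4 and Dusp10 were near the limit of detection. Dusp4 (ENSMUSG00000031530; chr8:34807297-34819894, plus strand), an inducible nuclear phosphatase of ERK and other MAP kinases, had 34 counts in non-CD24+CD90+ replicate 3, 16 counts in TIC replicate 2 and 0 in the other 4 samples. Dusp10 (ENSMUSG00000039384; chr1:184013302-184075636, plus strand), which acts mainly on JNK and p38, had 13 counts in non-CD24+CD90+ replicate 3, 111 counts in TIC replicate 2 and 0 elsewhere. Neither gene was tested, and each group's signal came from 1 sample. A count of 0 allows up to 3 counts, or 0.33 to 0.442 CPM depending on the library, by counting error alone.

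The Sprouty genes, which curb receptor signaling upstream of RAS and RAF, overlapped between the groups, with an adjusted p of 1 for each (edgeR exactTest). Spry2 (ENSMUSG00000022114; chr14:105891947-105896819, minus strand) was the most abundant of them, at 44.1, 35.7 and 57.8 CPM in the non-CD24+CD90+ samples and 45.8, 88.1 and 39.2 CPM in the TIC samples. TIC replicate 2 stood highest and the other 5 samples were mixed, with a log2 fold change of 0.33 (SE 0.47, 95% interval -0.6 to 1.26), which became -0.11 without TIC replicate 2. Spry1 (ENSMUSG00000037211; chr3:37639947-37644598, plus strand) was at 15.5, 1.02 and 6.01 CPM against 12.1, 13.1 and 0 CPM. Each group spread widely, with raw counts of 106, 9 and 42 against 110, 112 and 0, and the 95% interval of its log2 fold change reached from -2.97 to 3.29. Exons of Spry1 share 710 bases with the antisense transcript Gm42922, with the same limit as for Dusp5. Spry4 (ENSMUSG00000024427; chr18:38586247-38601415, minus strand) was at 0, 5.22 and 9.58 CPM against 9.01, 1.75 and 25.6 CPM, and its log2 fold change of 1.29 had a 95% interval of -1.7 to 4.28 and became 0.14 without TIC replicate 3. The highest Spry4 level was in TIC replicate 3. That library also had the highest summed fibroblast (10826 CPM), pericyte (1504 CPM) and endothelial markers (682 CPM). Summed endothelial markers were 210 and 299 CPM in TIC replicates 1 and 2, where Spry4 was at 9.01 and 1.75 CPM. They were 144 to 177 CPM in the non-CD24+CD90+ samples, highest in replicate 1, where Spry4 was at 0 CPM. The part of any cell type in the Spry4 level was not tested.

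Spred1 (ENSMUSG00000027351; chr2:117121374-117182279, plus strand) encodes a membrane protein that brings the RAS inhibitor neurofibromin to RAS. It was steadier than the Sprouty genes, at 94.4, 132 and 124 CPM in the non-CD24+CD90+ samples and 117, 82.1 and 75.2 CPM in the TIC samples. The groups overlapped through TIC replicate 1 (means 117 ± 19.7 and 91.4 ± 22.4 CPM). Its log2 fold change was -0.35 (SE 0.34, 95% interval -1.02 to 0.31; adjusted p = 0.999, edgeR exactTest).

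The PEA3-type ETS factors differed in abundance. Etv5 (ENSMUSG00000013089; chr16:22381309-22439719, minus strand) was at 82.7, 126 and 71.5 CPM in the non-CD24+CD90+ samples and 47.9, 59.3 and 40.9 CPM in the TIC samples. All 3 TIC samples lay below the others, with means of 93.4 ± 28.8 and 49.4 ± 9.31 CPM and a log2 fold change of -0.92 (SE 0.4, 95% interval -1.7 to -0.14). This difference did not pass the test (unadjusted p = 0.0217, adjusted p = 0.438, edgeR exactTest; adjusted p = 0.421, DESeq2). Etv4 (ENSMUSG00000017724; chr11:101769742-101785371, minus strand) was at 0.73, 1.02 and 18.3 CPM against 2.97, 6.3 and 0 CPM. Non-CD24+CD90+ replicate 3 stood far above the other 5 samples. Its log2 fold change of -1.11 (95% interval -4.7 to 2.49; adjusted p = 1, edgeR exactTest) became 1.80 without that replicate.

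**Figure D2:**
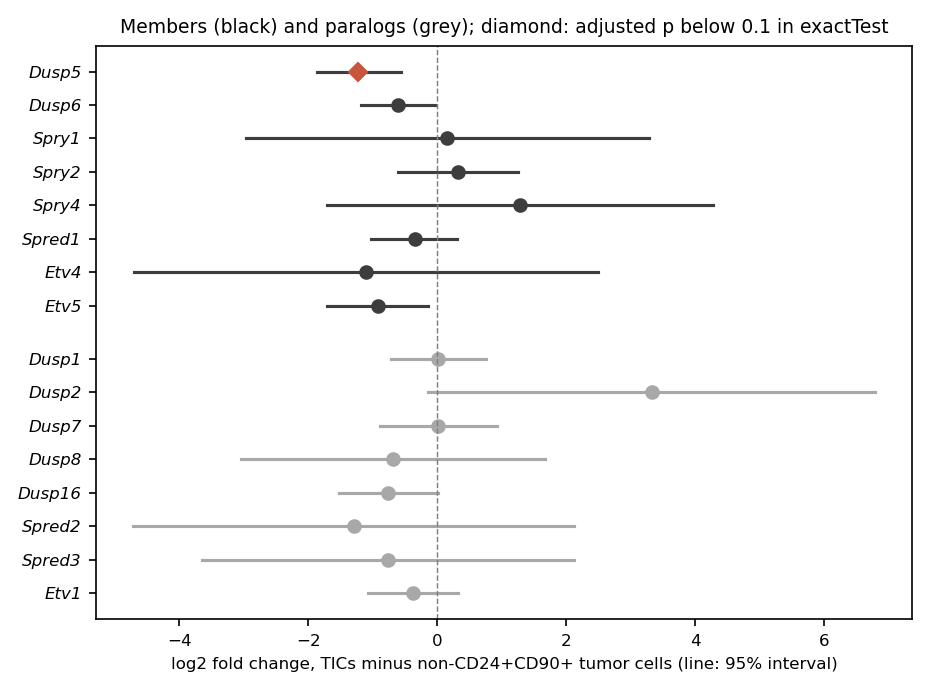
Log2 fold change (TIC minus non-CD24+CD90+) of the 8 tested members with the 95% interval from the negative binomial fit. Grey marks 8 related Dusp, Spred and Etv genes, and the line at 0 marks equal levels. Among the members, the intervals of Dusp5, Dusp6 and Etv5 lie below 0, and those of Spry1, Spry4 and Etv4 are wider than 5 log2 units.

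**Figure D3:**
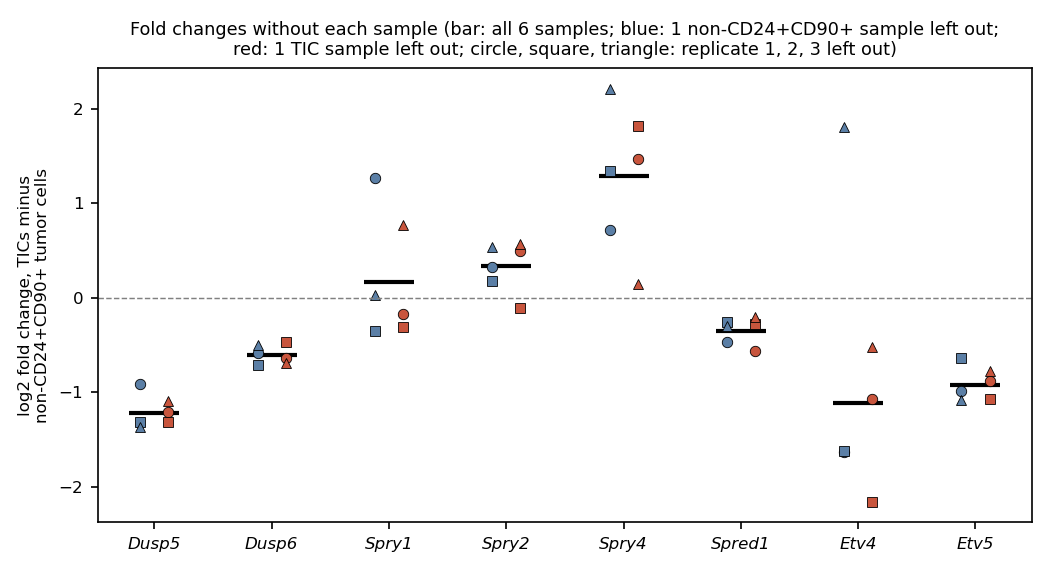
Log2 fold change (TIC minus non-CD24+CD90+) of the 8 tested genes with all 6 samples and with each sample left out in turn. Dusp5, Dusp6, Spred1 and Etv5 stay below 0 in every refit and Spry4 above 0, whereas Spry1, Spry2 and Etv4 cross 0.

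Ordered by CPM per kilobase of exon over all 6 samples, the level was highest for Dusp6 (mean 90, range 57.3 to 124), followed by Dusp5 (55.8, 28.7 to 107), Spry2 (24.8, 17.1 to 42.2), Etv5 (17.4, 9.97 to 30.7) and Spred1 (15.3, 11.1 to 19.4). Each of these overlapped its neighbour in the order. The order of the last 3 differed between the groups, with means of 22.8 for Etv5, 22 for Spry2 and 17.2 for Spred1 in the non-CD24+CD90+ samples and of 27.7 for Spry2, 13.5 for Spred1 and 12 for Etv5 in the TIC samples. A gap followed, and the other members were all lower on the same scale: Spry1 (2.73, 0 to 5.32), Spry4 (1.79, 0 to 5.38), Etv4 (1.57, 0 to 5.9), Dusp10 (0.811, 0 to 4.25) and Dusp4 (0.409, 0 to 1.77). These 5 overlapped each other, and each read 0 in at least 1 sample. The 5 more abundant genes had counts above 0 in every sample.

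The summed level of the 10 genes was 847, 753 and 831 CPM in the non-CD24+CD90+ samples and 555, 539 and 506 CPM in the TIC samples, a ratio of means of 0.658. Dusp6 made up 33.3% to 50.2% of the sum in any sample. Dusp5 made up 31.2%, 21.7% and 18.1% of it in the non-CD24+CD90+ samples and 15%, 17.5% and 14% in the TIC samples. The sum, which is not scaled by gene length, was thus mostly made of the ERK phosphatases.

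Markers of the cell types that the sorts could hold were read beside the members. Summed luminal epithelial markers (10 genes, all above 0) were at 5879 to 6349 CPM in the non-CD24+CD90+ samples and 3948 to 4628 CPM in the TIC samples, a ratio of 0.687. All 10 had a log2 fold change at or below 0, with Cldn3 unchanged (-0.00). The edgeR exactTest called 0 of the 10 (2 at an unadjusted p below 0.05, and 2 called by DESeq2). Summed fibroblast markers (8 genes, 5 called higher) were at 2791 to 3180 CPM and 7466 to 10826 CPM, and summed pericyte markers (8 genes, 1 called higher) at 453 to 527 CPM and 891 to 1504 CPM. The fibroblast list includes collagen genes. The paper reads raised collagens in TICs as part of an epithelial-to-mesenchymal transition, and which cells made the collagen RNA was not tested. The 8 basal epithelial markers summed to 925 to 1569 CPM and 862 to 1219 CPM, and the 8 endothelial markers to 144 to 177 CPM and 210 to 682 CPM. None of either list was called (1 and 4 at an unadjusted p below 0.05, edgeR exactTest, and 0 by DESeq2). The leukocyte markers summed to 16.7 to 35.6 CPM and 32.1 to 90.1 CPM (1 called higher, Lyz2), with Cd3e and Adgre1 at 0 in every sample. The higher TIC sum came mostly from Lyz2 (means 8.57 and 55.1 CPM). The other 2 tested leukocyte markers, Cd68 (-0.31) and Csf1r (-1.68), had negative log2 fold changes. The part of cell makeup in the lower Dusp5, Dusp6 and Etv5 levels was not tested.

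The members were therefore also expressed per 1000 CPM of the luminal sum, a description chosen after the values were seen and given with no test. The sum (means 6140 and 4216 CPM) followed its most abundant genes, Krt18 (2657 and 1645 CPM) and Epcam (1494 and 1181 CPM). Cldn3 averaged 136 CPM in both groups, so a scale built on other luminal markers could give other ratios. On this scale Dusp5 was 41.7, 26.4 and 25.6 in the non-CD24+CD90+ samples and 18, 23.2 and 17.9 in the TIC samples. The groups still did not overlap, and the ratio of means was 0.632. Dusp6 was 54.4, 46.6 and 65.8 against 51.1, 44.1 and 64.4, with a ratio of 0.957. Etv5 was 13, 20.4 and 12.2 against 10.4, 14.6 and 10.4, with a ratio of 0.775. Both of these overlapped between the groups on the luminal scale, and Spred1 turned to a positive log2 ratio (0.17). Spry2 was 6.94, 5.77 and 9.83 against 9.9, 21.7 and 9.93, so that every TIC sample lay above the other samples, by a ratio of means of 1.84. Dividing by the luminal sum moved the median log2 ratio of all tested genes from -0.01 to 0.54, and Dusp5 (-0.66), Etv5 (-0.37), Dusp6 (-0.06) and Spred1 (0.17) all lay below that median, while Spry2 (0.88) lay above it. Every TIC sample lay below every other sample in 1.89% of all tested genes on this scale, and above in 20.9%.

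**Figure D4:**
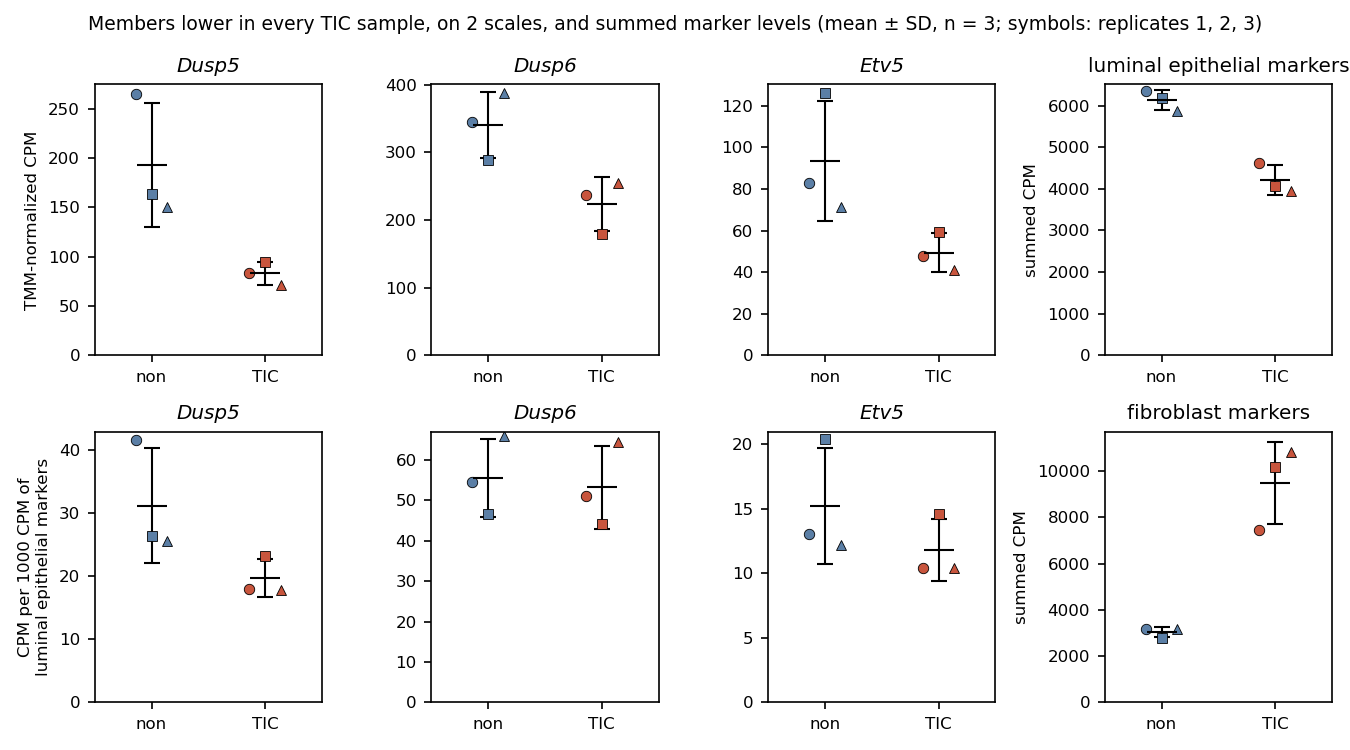
Dusp5, Dusp6 and Etv5 in each sample as TMM CPM and per 1000 CPM of summed luminal epithelial markers (linear axes); points are samples. All 3 genes separate the groups in CPM, and Dusp5 alone of the 3 still does so per luminal sum. The last column shows the summed luminal epithelial and fibroblast markers.

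The other phosphatase, Sprouty, Spred and PEA3 genes were read as relatives of the members (10 genes, of which 8 passed the filter). None was called by the edgeR exactTest (1.55% of all tested genes), and 0 had an unadjusted p below 0.05 (7.85% of all tested genes). Dusp16, a JNK and p38 phosphatase, was at 91.2, 67.2 and 91.1 CPM in the non-CD24+CD90+ samples and 55.7, 48 and 43.5 CPM in the TIC samples. Among the 8 tested relatives, only Dusp16 had groups that did not overlap, with every TIC sample lower, as in 7.55% of all tested genes. Its log2 fold change was -0.76 (SE 0.39, adjusted p = 0.653, edgeR exactTest). Dusp1, the immediate early MAP kinase phosphatase, ranged from 225 to 475 CPM against 220 to 547 CPM, with a log2 fold change of 0.02. Dusp7, a cytoplasmic ERK phosphatase like Dusp6, was at 50.5 to 79.7 CPM against 33.1 to 106 CPM (log2 fold change 0.02). Etv1, the remaining PEA3 factor, was at 85.4 to 113 CPM against 63.5 to 100 CPM (log2 fold change -0.38). Dusp2, Dusp8, Spred2 and Spred3 had log2 fold changes of 3.33, -0.68, -1.29 and -0.76 with standard errors of 1.77, 1.21, 1.74 and 1.48, while Dusp9 was not tested and Spry3 had 0 counts in all samples.

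Across the lists of related pathway genes (80 distinct genes, relatives included), 75 were tested and the edgeR exactTest called none at an adjusted p below 0.1, beside 1.55% of all tested genes in either direction. At an unadjusted p below 0.05 there were 5, beside 7.85% of all tested genes. The groups did not overlap for 5 genes higher and 8 lower in TICs, beside 7.69% and 7.55% of all tested genes. The quasi-likelihood test called 0 (0.41% of all tested genes) and DESeq2 called 1, Phlda1 (2.52% of all tested genes). Among ERK output genes (13 tested, median log2 fold change -0.13), Phlda1 was at 3416, 3115 and 2446 CPM against 2082, 1989 and 1889 CPM. Every TIC sample was lower, by a log2 fold change of -0.59 (adjusted p = 0.504, edgeR exactTest; adjusted p = 0.0391, DESeq2). The early response gene Ier3 was also lower in every TIC sample, at 125 to 199 CPM against 94 to 118 CPM (log2 fold change -0.57). Fos, an immediate early gene and second to Phlda1 in CPM on this list, overlapped between the groups at a log2 fold change of -0.13.

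No kinase of the MAP kinase paths was called (RAS to ERK cascade, 21 tested, median log2 fold change -0.09). Mapk3, which encodes ERK1, differed by -0.15 and Map2k2, which encodes MEK2, by -0.07. Araf was higher (0.54) and the ERK-activated kinase Rps6ka3 lower (-0.62) in every TIC sample. Among JNK and p38 kinases (10 tested, median -0.36), Mapk14 differed by -0.43 and Mapk8 by -0.39, both overlapping, and Map2k6 was lower in every TIC sample at a log2 fold change of -1.98 (SE 1.62). Among partners of middle T (10 tested, median -0.06), Plcg1 (0.82) and Ppp2cb (1.15) were higher and Pik3cb (-0.47) lower in every TIC sample, while those highest in CPM, Pik3r1 (-0.38) and Ppp2ca (-0.36), overlapped.

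Among growth factor receptors (13 tested, median log2 fold change -0.18), Fgfr2, an epithelial receptor for fibroblast growth factors, was at 36.3, 71.9 and 50.9 CPM in the non-CD24+CD90+ samples and 16.2, 17.8 and 17.8 CPM in the TIC samples. Every TIC sample was lower, with a log2 fold change of -1.62 (SE 0.54; adjusted p = 0.165, edgeR exactTest). Erbb2 was lower in every TIC sample (-0.45), and the receptors Pdgfra (0.65) and Pdgfrb (0.81), typical of stromal cells, were higher in every TIC sample, none of them past the test. Fgfr1 (-0.27) and Met (-0.31), highest among these receptors in CPM averaged over all 6 samples, overlapped between the groups. Flt1, a receptor of endothelial cells, was at 133, 100 and 47.3 CPM against 77.4, 223 and 566 CPM, which also overlapped (log2 fold change 1.63; adjusted p = 0.176, edgeR exactTest).

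The genes whose profile over the 6 samples was closest to that of Dusp5 were Muc20, Golt1b, Snhg20, Mfsd12 and Fhdc1. Their root mean square differences from Dusp5 in centred log2 CPM were 0.137, 0.139, 0.145, 0.161 and 0.175, beside a median of 0.775 over 6773 genes with a mean of at least 20 CPM. Among the members, Etv5 was closest to Dusp5 at rank 191 (0.405), followed by Dusp6 at rank 519 (0.481), Spred1 at rank 1501 (0.603) and Spry2 at rank 4043 (0.843). The profiles share the same 6 libraries, and likeness was taken as a description.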

How the data were processed

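RNA of sorted cells (120 ng per sample) was sequenced by the authors on Illumina libraries. Per the labels and processing notes, reads were trimmed (Trimmomatic 0.32), aligned to GRCm38 (STAR 2.4.0, with reads of several positions removed by SAMtools 1.1) and counted per Ensembl gene with HTSeq. The deposited values are raw counts, 1 table per sample. Symbols and coordinates came from GENCODE M21 for 40340 of 41388 identifiers, and identifiers without a symbol held at most 0.133% of counts. Genes above 1 CPM in at least 3 samples (12192) were tested with edgeR 4.0.16 (R 4.3.3) exactTest with TMM normalization and tagwise dispersions. Calls were made at a Benjamini-Hochberg adjusted p below 0.1, the threshold given in the study's results. Standard errors came from the negative binomial fit, and intervals are 1.96 standard errors to each side. Alternatives were the quasi-likelihood test, DESeq2 1.42.0, RLE factors, library size alone, no filter, at least 10 counts in every sample, an adjusted p below 0.05 and leaving out each sample. The code was tested on simulated data. Levels between genes were divided by merged exon length. Named genes were all members and their relatives and, per pathway list, called genes, genes whose groups did not overlap and the 2 highest in CPM, the sorting markers, plus the 5 genes most like each called member. Members and lists were chosen with earlier results of these data known. The marker lists hold 1 gene that is not reported here. The limit given for genes without counts covers counting error only, while intervals of fold changes also cover the fitted spread between samples.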

Additional observations from a re-analysis of the deposited data

How the results depend on the processing

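The count of called genes was 189 and ranged over 50 (quasi-likelihood test), 305 (DESeq2), 112 (no filter on low counts) and 116 (adjusted p below 0.05), and from 72 (without non-CD24+CD90+ replicate 3) to 323 (without TIC replicate 1) with 1 sample left out. Of the ERK feedback genes 1, Dusp5, was called, against 0 by the quasi-likelihood test, 0 with no filter (adjusted p = 0.113) and 0 to 1 with a sample left out. Of the other pathway genes 0 were called, against 1 by DESeq2 (Phlda1), 2 with at least 10 counts in every sample (Flt1 and Fgfr2) and 0 to 2 with a sample left out (Flt1 and Kdr without TIC replicate 1). The direction of 4 members turned under some setting. Spry1 ranged from -0.35 to 1.26 with a sample left out and was negative without non-CD24+CD90+ replicate 2 (-0.35), TIC replicate 1 (-0.17) or TIC replicate 2 (-0.31). Spry2 ranged from -0.11 to 0.57 and Etv4 from -2.16 to 1.80, while Spred1 turned to 0.17 per luminal marker sum. The cause was not tested. No paired analysis was possible because the labels give no replicate numbers. The numbers used here only name the samples, and whether pools of the groups shared mice is not given in the labels. The study's supplement gives 4 sortings per sample and a total of 12 mice, without saying whether this total covers 1 group or both. If both, the unpaired tests used here ignore shared mice. Differences in Spry1, Spry4 and Etv4 were within wide intervals, and Dusp4 and Dusp10 were not tested.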

Other observations

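The paired CArG boxes seen before Dusp5 were found in few other promoters of the same length. Of the 6 windows with at least 2 boxes, 1 belonged to Srf, the gene of the serum response factor that binds them. Srf was at 94.6, 110 and 100 CPM in the non-CD24+CD90+ samples and 66.4, 53.3 and 87.6 CPM in the TIC samples. Every TIC sample was lower, as in 7.55% of all tested genes, and the log2 fold change of -0.56 did not pass the edgeR exactTest (adjusted p = 0.875). Ceacam11 had 0 counts in every sample, and the remaining windows belonged to genes that the count tables do not list. Srf was looked up after the Dusp5 values were seen.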
